A study of Mus musculus with 2 samples.

Results

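The reads of 8 genes for proteins that connective tissue cells secrete into muscle were described by gene, by isoform and by exon: Gsn (gelsolin), Sparc, Fn1 (fibronectin), Dpt (dermatopontin), Mgp (matrix Gla protein), Pcolce (procollagen C-endopeptidase enhancer), Serpinf1 (pigment epithelium-derived factor) and Fbn1 (fibrillin-1). They were taken by gene name from every transcript model of both libraries, and they are 8 of the 15521 annotated genes that had a read in either library. Each library was long-read RNA sequencing of the whole gastrocnemius, a calf muscle, from a female B6CASTF1/J mouse, which is a first-generation cross of C57BL/6J and CAST/EiJ, aged 25 days, with no transgene, deletion or treatment named. The labels give 1 group with biological replicates 1 and 2, each from 2 µg of total RNA and numbered as separate animals under 1 donor record, so no conditions were compared: a test here asks whether the 2 libraries differ, and animal, dissection and library preparation cannot be told apart. The reads were assigned on mm10, the C57BL/6J assembly, and the parental alleles of the cross were not separated. In RNA of whole tissue, fewer cells of a type and less RNA per cell cannot be told apart, and the cells that made these transcripts were not identified.

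These proteins have different places outside the cell. Gelsolin severs and caps actin filaments inside cells and, in a longer form with a signal peptide, clears actin from plasma. Both forms come from 1 gene by use of different first exons. Fibronectin and fibrillin-1 are large glycoproteins that cells assemble into fibres and microfibrils, and fibronectin is spliced at the EIIIB exon, the EIIIA exon and the V region; the liver's plasma fibronectin leaves EIIIB and EIIIA out. SPARC and dermatopontin bind collagen, PCPE-1 (the Pcolce product) speeds removal of the procollagen C-propeptide, matrix Gla protein is a vitamin K-dependent inhibitor of calcification, and PEDF is a serpin that does not inhibit proteases and binds collagen and the lipase Pnpla2.

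The gelsolin starts are shown first because the choice of first exon decides which protein is made. Gsn (ENSMUSG00000026879.14, chromosome 2, 35256380 to 35307892, plus strand, mm10) has an upstream first exon at 35256380 to 35256473 and a downstream one at 35282380 to 35282601. The downstream one is spliced straight into a shared exon at 35283905 to 35284109. In the annotated transcript described below, the upstream one reaches the shared exon through an untranslated exon of 84 bases at 35266820 to 35266903. The annotated transcript from the downstream exon, Gsn-201, has 780 codons. That from the upstream exon, Gsn-205, has 731, and translating both showed that the shorter protein equals the longer one without its first 49 residues. Of the first 25 residues of the longer protein 13 were leucine, alanine, valine or isoleucine, and it is called the secreted form here and the shorter one the cytoplasmic form. The next line gives the GENCODE M21 coding sequence of Gsn-201, 5′ to 3′, from its own start codon at position 35282464 to the start codon of the cytoplasmic form, which ends at 35283916 after splicing, with both start codons in capitals.

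secreted start: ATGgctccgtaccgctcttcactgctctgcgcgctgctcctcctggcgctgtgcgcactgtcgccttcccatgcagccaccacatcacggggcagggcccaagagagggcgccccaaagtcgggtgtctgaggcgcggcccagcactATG

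The lines below give the 15 bases on each side of the junction into the shared exon, which is in capitals, for the secreted form (exon end at 35282601) and for the cytoplasmic form, where the exon before it is untranslated.

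secreted junction: gtgtctgaggcgcggCCCAGCACTATGGTG
cytoplasmic junction: tgtgcagcctgtaagCCCAGCACTATGGTG

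Nearly all gelsolin reads came from the secreted start. In replicate 1, 1588 of 1605 complete reads that began at either first exon used it (98.9%, exact 95% interval 98.3 to 99.4). In replicate 2 it was 1688 of 1693 (99.7%, 99.3 to 99.9), so that the mean share was 99.3% ± 0.540 (SD, n = 2). Intervals throughout are Clopper-Pearson intervals and cover counting error only. The cytoplasmic start had 17 reads in replicate 1 (1.06%, 0.618 to 1.69) and 5 in replicate 2 (0.295%, 0.0960 to 0.688). It was thus read in both libraries, at 1.06% of reads or less, and the intervals of the libraries overlap. Of the 17 reads, 15 matched Gsn-205, which has an untranslated exon of 84 bases between the upstream and the shared exon, and 2 were chains outside the annotation, one of them with a further 56-base exon. Of the 5 reads in replicate 2, 4 matched Gsn-205 and 1 joined the upstream exon straight to the shared exon. Fisher's exact test of the leading first splice donor against all others gave an adjusted p of 0.936 for Gsn (raw p 0.0559; Benjamini-Hochberg over 2393 genes, of which 1.04% were called). Another 40 spliced reads in replicate 1 and 61 in replicate 2 began at neither first exon, and 38 and 57 of these were incomplete chains.

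**Figure D1:**
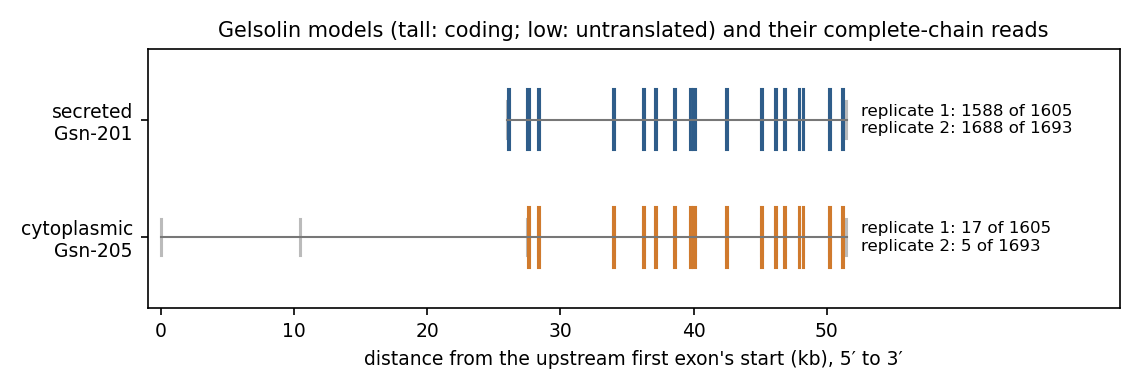
Exons of the secreted (Gsn-201) and cytoplasmic (Gsn-205) gelsolin models against distance in kb from the upstream first exon, coding parts tall and untranslated parts low. The narrowest exons are drawn wider than to scale so that they show. At the right stand the complete-chain reads from each start in replicates 1 and 2: 1588 of 1605 and 1688 of 1693 for the secreted start, 17 and 5 for the cytoplasmic one.

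The 250 bases before the secreted start and before the cytoplasmic start are given next, since the reads divide so unequally between them. They are among RefSeq's 3 promoter windows of Gsn on GRCm38.p6, plus strand. The window before the secreted start is chr2:35282130-35282379, and that before the cytoplasmic start is chr2:35256109-35256358. The RefSeq position of the cytoplasmic start lies 21 bases upstream of GENCODE's. Capitals mark GGGCGG (GC box core), CCAAT and TATAAA, each on either strand.

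secreted promoter: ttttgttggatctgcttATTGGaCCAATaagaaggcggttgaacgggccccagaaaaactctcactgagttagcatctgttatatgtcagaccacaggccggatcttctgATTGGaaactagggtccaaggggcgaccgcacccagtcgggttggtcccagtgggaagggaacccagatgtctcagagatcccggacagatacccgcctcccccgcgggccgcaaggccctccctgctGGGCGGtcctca
cytoplasmic promoter: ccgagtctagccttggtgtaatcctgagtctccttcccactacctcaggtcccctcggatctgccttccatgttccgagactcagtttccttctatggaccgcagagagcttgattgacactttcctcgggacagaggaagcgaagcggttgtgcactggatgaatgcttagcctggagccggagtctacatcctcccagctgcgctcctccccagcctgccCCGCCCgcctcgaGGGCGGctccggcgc

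The secreted promoter held CCAAT 3 times and GGGCGG once, and the cytoplasmic promoter held GGGCGG 2 times and CCAAT 0 times. Neither window held TATAAA. Among all 32851 promoter windows of the same length, 33.8% held CCAAT, 32.7% GGGCGG and 12.4% TATAAA. The secreted window had 12 CpG dinucleotides and 57.6% G and C, the cytoplasmic one 15 and 60.8%. RefSeq has a further Gsn start at 35266744, upstream of the untranslated 84-base exon of Gsn-205. Its window, not printed here, held 1 GGGCGG, 1 CCAAT and 0 TATAAA, with 2 CpG dinucleotides and 56% G and C. Reads from that start were not counted separately. Sequence matches of this kind are descriptions of the windows and locate no bound factor.

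Gelsolin and SPARC were read at far higher levels than the other 6 genes. Levels are CPM, reads scaled to a fixed total of mouse reads, 1069771 in replicate 1 and 1557594 in replicate 2 after spike-ins were left out, at which 0 reads would allow 2.80 and 1.93 CPM. Each long read stands for 1 transcript, so levels were not divided by transcript length. The 8 genes together took 2568 reads in replicate 1 (0.240%) and 3629 in replicate 2 (0.233%), from 107 and 125 transcript models. Counts of higher and lower genes below rest on Fisher's exact test, two-sided, of each gene's reads against the rest of the library, adjusted over 8892 genes with 10 or more reads. Of these, 11.1% were called higher and 14.9% lower in replicate 2. The 8 genes gave 2 higher, 2 lower and 4 not called, and with 8 genes these counts were not tested against that background. With the spread between these libraries estimated in edgeR (coefficient of variation 0.363) in place of counting error, its exact test called 0 of the 8 at an adjusted p under 0.05 and 0 at an unadjusted p under 0.05, the smallest being 0.135 for Serpinf1. That spread holds the very difference under test, since it comes from the same 2 libraries, so these counts of 0 say nothing on whether the levels differ. The p-values from Fisher's test compare these 2 libraries only.

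Gsn was the most read of the 8. It had 1653 reads in replicate 1, or 1545 CPM (1472 to 1621), and 1784 reads in replicate 2, or 1145 CPM (1093 to 1200), a mean of 1345 ± 283 CPM (SD, n = 2). It ranked 46 and 82 among annotated genes by reads. Replicate 2 was 1.35-fold lower (log2 ratio of replicate 2 to replicate 1 -0.43, adjusted p 9.4e-17). That difference shrank to -0.11 with an adjusted p of 0.152 once the trend of the log2 ratio on transcript length was removed. Long transcripts were read less in replicate 2 in general: the median log2 ratio ran from 0.80 for genes of up to 1000 bases to -0.66 for genes above 5000 bases, with a Spearman correlation of -0.50 across genes, which are not independent, and the leading Gsn model is 2653 bases long.

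Sparc (ENSMUSG00000018593.13, chromosome 11, 55394500 to 55423183, minus strand), which encodes a collagen-binding matricellular protein, moved the other way. Its 709 reads in replicate 1 were 663 CPM (615 to 713) and its 1453 reads in replicate 2 were 933 CPM (886 to 982), with a mean of 798 ± 191 CPM (SD, n = 2). The intervals do not overlap, and the log2 ratio was 0.49 (adjusted p 1.1e-12), or 0.71 with the length trend removed. In both libraries Gsn stood above Sparc beyond counting error.

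Pcolce (ENSMUSG00000029718.14, chromosome 5, 137605103 to 137613784, minus strand) came next. It had 99 reads, 92.5 CPM (75.2 to 113), in replicate 1 and 195 reads, 125 CPM (108.2 to 144), in replicate 2, with overlapping intervals. The log2 ratio of 0.43 missed the threshold at an adjusted p of 0.0553. TMM scaling and DESeq2 size factors, which move the median log2 ratio of all genes from -0.18 to 0.00, gave 0.62 and 0.61 and a call (adjusted p 0.00298 and 0.00356). It was also called with spike-ins kept in the totals (adjusted p 0.0488) and with 20 or more reads per gene required (adjusted p 0.0453). It was not called with the length trend removed (log2 ratio 0.35, adjusted p 0.218) or over complete chains (0.42, adjusted p 0.0967). Without a count minimum it was not called either (adjusted p 0.094). Reads of annotated models alone, scaled to the total of such reads, gave 0.20 with an adjusted p of 0.505. In that setting, also used for Serpinf1 and Fn1 below, the median log2 ratio of all genes was -0.38.

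Serpinf1 (ENSMUSG00000000753.15, chromosome 11, 75409769 to 75422701, minus strand) had the largest log2 ratio of the 8. It rose from 28 reads, 26.2 CPM (17.4 to 37.8), in replicate 1 to 97 reads, 62.3 CPM (50.5 to 76.0), in replicate 2, which is 2.38-fold, a log2 ratio of 1.23 and an adjusted p of 0.000226. Of the 97 reads 28 were single-exon models, against 2 of 28 in replicate 1. Over reads of annotated models alone the log2 ratio was 0.69 and was not called (adjusted p 0.132), and over complete chains it was 0.95 and was called (adjusted p 0.0232).

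Fibronectin and fibrillin-1, the longest transcripts, were read little. Fn1 (ENSMUSG00000026193.15, chromosome 1, 71585520 to 71653200, minus strand) had 34 reads, 31.8 CPM (22.0 to 44.4), in replicate 1 and 25 reads, 16.1 CPM (10.4 to 23.7), in replicate 2. The log2 ratio was -0.98 with an adjusted p of 0.0441, and the intervals overlap. The call was lost with TMM or DESeq2 scaling (adjusted p 0.117 for both) and with the length trend removed, where the log2 ratio was -0.32. Over reads of annotated models the log2 ratio was -2.50 (adjusted p 0.00191) and over complete chains -2.36 (adjusted p 0.00144). These rest on 16 and 4 reads of annotated models and on 21 and 5 complete reads, without removal of the length trend. Complete reads were 61.8% of Fn1 reads in replicate 1 and 20% in replicate 2. Level and completeness of reads cannot be told apart in these 2 ratios. Fbn1 (ENSMUSG00000027204.13, chromosome 2, 125300594 to 125507993, minus strand) had 15 and 19 reads, 14.0 CPM (7.85 to 23.1) and 12.2 CPM (7.34 to 19.0), a log2 ratio of -0.21 and an adjusted p of 0.883. At these depths a difference of the size seen for Fn1 would not be detectable in Fbn1, whose log2 ratio has a 95% counting interval of -1.26 to 0.88.

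Matrix Gla protein and dermatopontin transcripts were also read little. Mgp (ENSMUSG00000030218.2, chromosome 6, 136872435 to 136875823, minus strand), with a leading model of 617 bases, had 15 reads, 14.0 CPM (7.85 to 23.1), and 36 reads, 23.1 CPM (16.19 to 31.997). The log2 ratio of 0.69 was not called (adjusted p 0.265) and became -0.13 with the length trend removed. Dpt (ENSMUSG00000026574.5, chromosome 1, 164796644 to 164824266, plus strand) had 15 reads, 14.0 CPM (7.85 to 23.1), and 20 reads, 12.8 CPM (7.84 to 19.8), with a log2 ratio of -0.14 and an adjusted p of 0.953. TMM and DESeq2 scaling turn that ratio to 0.04. By mean CPM the order of the 8 was Gsn, Sparc, Pcolce, Serpinf1, Fn1, Mgp, Dpt and Fbn1. In replicate 1 the intervals of Serpinf1 and Fn1 overlap, and Mgp, Dpt and Fbn1 overlap in both libraries, so the lower part of the order is not fixed beyond counting error.

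**Figure D2:**
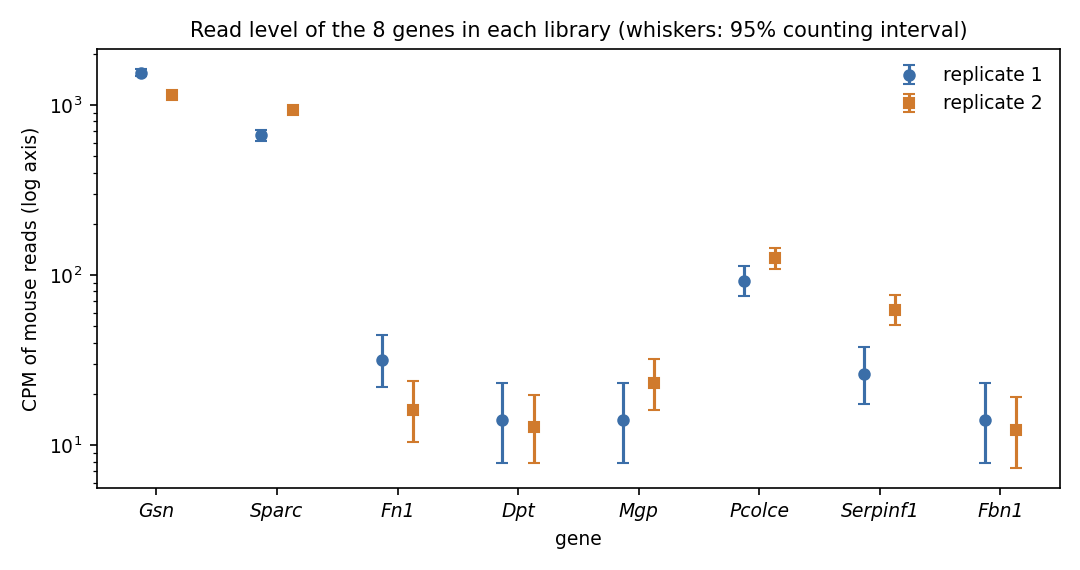
CPM of mouse reads (log axis) of the 8 genes in replicate 1 (circles) and replicate 2 (squares), with exact 95% counting intervals as whiskers. Gsn and Sparc stand at 663 CPM or more in both libraries, Pcolce at 92.5 and 125, and the rest between 12.2 and 62.3; the 2 libraries part most in proportion for Serpinf1, 26.2 against 62.3 CPM.

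How far reads reached toward the 5′ end differed widely between the genes. Among spliced reads, 97.6% of Gsn reads in replicate 1 and 96.5% in replicate 2 began in a first exon of a coding transcript, near the medians of 95.6% and 94.4% over 3640 genes with 20 or more spliced reads in each library. For Pcolce it was 89.7% and 78.7%, for Serpinf1 92.3% and 89.9%, for Mgp 14 of 14 and 33 of 34 reads, and for Dpt 7 of 7 and 8 of 8. Sparc, Fn1 and Fbn1 lay far lower. Sparc had 308 of 646 reads (47.7%, 43.8 to 51.6) and 499 of 1200 (41.6%, 38.8 to 44.4), Fn1 19 of 32 (59.4%) and 5 of 23 (21.7%), and Fbn1 4 of 12 (33.3%) and 1 of 8 (12.5%). Fn1 and Fbn1 have leading models of 7797 and 9847 bases, while that of Sparc, at 2300 bases, is shorter than that of Gsn. Along Sparc, reads fell from 708 and 1453 over exon 10, the last, to 564 and 1052 over exon 6, 416 and 699 over exon 5, and 311 and 503 over exon 1. The largest step was thus between exons 6 and 5 in both libraries.

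**Figure D3:**
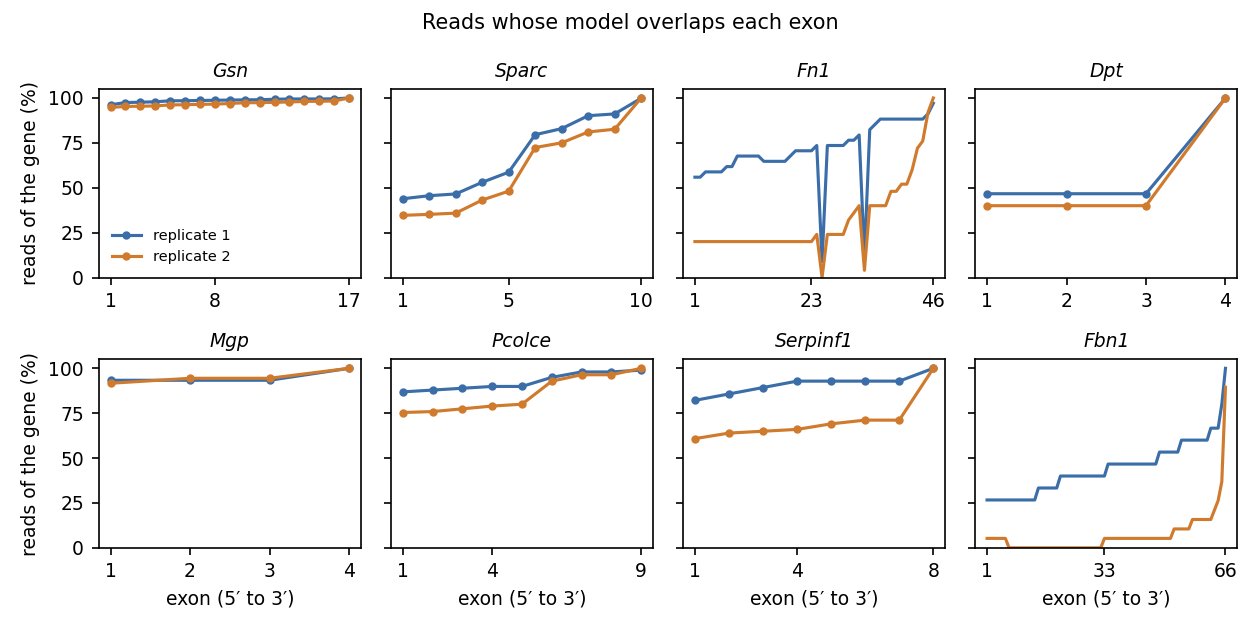
Share of each gene's reads (%) whose transcript model overlaps each exon of the reference model, from the 5′ to the 3′ end, in replicate 1 and replicate 2. Gsn and Mgp stay near 100% throughout, Sparc steps down between exons 6 and 5, Fbn1 and Fn1 fall toward the 5′ end, and the 2 dips in Fn1 are the EIIIB and EIIIA exons (exons 25 and 33 of the 46 in the annotated transcript that holds both).

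The deposited models sort reads into classes: Known (an annotated chain of introns), NIC (annotated splice sites in a combination outside the annotation), NNC (1 or more splice sites outside the annotation), ISM (part of an annotated chain) and Genomic (overlapping the gene without its splice sites). Known, NIC and NNC are counted as complete. Complete chains made up 97.2% of Gsn reads in replicate 1 and 95.1% in replicate 2, against 89.3% and 82.2% over all annotated genes. They were 69.0% and 61.7% for Sparc, 61.8% and 20% for Fn1 and 4 of 15 and 0 of 19 reads for Fbn1. The complete Sparc reads include 146 and 345 of Sparc-205 and 23 and 38 of Sparc-203. These are short annotated chains that cannot be told from broken-off longer reads, as described below. The share was lower in replicate 2 for 8 of 8 genes, as was the pooled share of all annotated genes. The counting intervals did not overlap for 3 of the 8, Gsn, Sparc and Fn1. How many other genes did either was not counted, so these counts cannot be read as a trait of the 8 genes. The pooled fall also differed in kind from that of the 8 genes. Over all annotated genes NNC reads fell from 18.8% in replicate 1 to 2.598% in replicate 2, while Known reads rose from 65.3% to 71.0%. In each of the 8 genes the Known share fell, for Gsn from 95.9% to 92.6% and for Sparc from 66.9% to 59.9%. The cause of the NNC difference between the libraries was not tested. Dpt divided sharply: 8 of its 15 reads in replicate 1 and 12 of 20 in replicate 2 were Genomic single-exon reads over its last exon, and the rest matched Dpt-201. An antisense gene, Gm32569, overlaps Dpt and had 3 reads in each library. Genomic reads were also 63 of 709 (8.89%) and 253 of 1453 (17.4%) of Sparc and 3 of 15 and 11 of 19 of Fbn1.

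**Figure D4:**
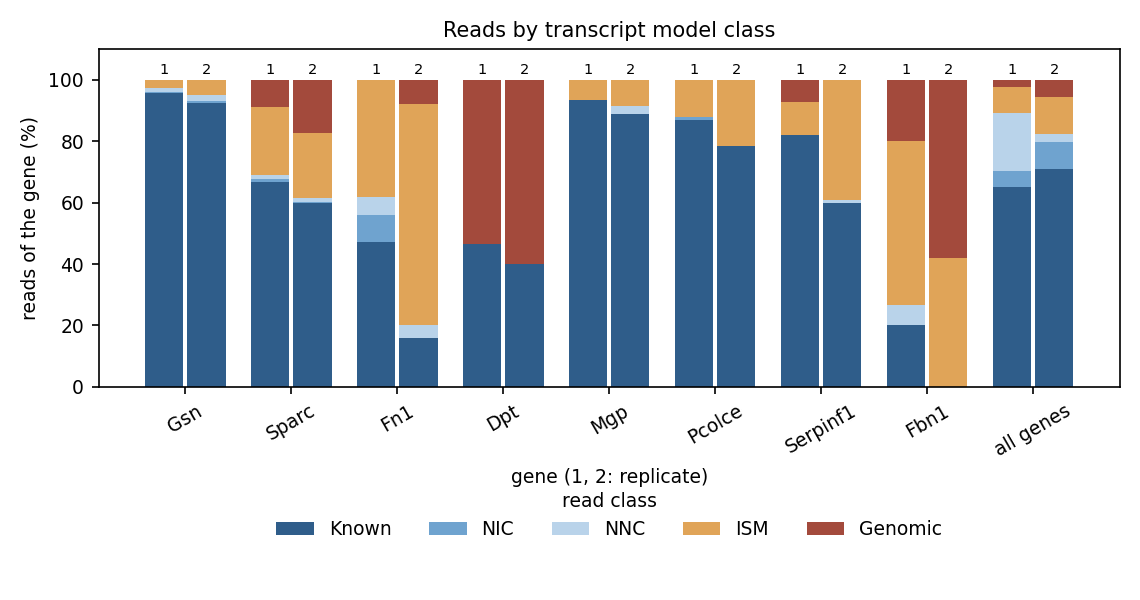
Reads of each gene (%) by model class in replicates 1 and 2 (left and right bar), with all annotated genes at the right. Gsn, Mgp and Pcolce are mostly Known, Fn1 in replicate 2 is mostly ISM (18 of 25 reads), and Dpt and Fbn1 hold many Genomic reads.

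Single isoforms led in 5 of the genes. Gsn-201 took 1570 of 1607 complete Gsn reads (97.7%) in replicate 1 and 1648 of 1697 (97.1%) in replicate 2, among 43 chains. Pcolce-201 took 78 of 87 (89.7%) and 140 of 153 (91.5%). The annotated coding chain of Serpinf1 took 23 of 23 and 58 of 59, Mgp-201 14 of 14 and 32 of 33, and Dpt-201 7 of 7 and 8 of 8. For the test of the leading chain 4 genes had enough reads, and 0 of these 4 were called, against 0.979% of 3267 genes. At an unadjusted p under 0.05 the count was also 0. Fisher's exact test gave p 0.326 for Gsn, 0.177 for Sparc, 0.647 for Pcolce and 1 for Serpinf1, each with an adjusted p of 1. For the first splice donor 0 of 3 were called, and Sparc alone had an unadjusted p under 0.05 (0.0143, adjusted p 0.565).

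Sparc was divided among 3 chains at 5% or more. Sparc-201 took 241 of 489 complete reads (49.3%, 44.8 to 53.8) in replicate 1 and 407 of 896 (45.4%, 42.1 to 48.8) in replicate 2. Sparc-202 took 63 (12.9%, 10.04 to 16.2) and 80 (8.93%, 7.14 to 10.99). These chains code for 302 and 301 residues and differ, among their introns, only by 3 bases at the 5′ end of exon 3, which is 60 bases long in Sparc-201 and 57 in Sparc-202. The lines below, minus strand, give 15 bases before the junction and the start of exon 3, from position 55409942 to 55407265, with the 3 bases that only Sparc-201 holds in capitals.

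Sparc-201 junction: gccctggcagcccctCAGcagactgaagtt
Sparc-202 junction: gccctggcagcccctcagactgaagtt

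Sparc-205, the remaining chain, took 146 reads (29.9%, 25.8 to 34.1) and 345 (38.5%, 35.3 to 41.8). It is annotated as a retained-intron transcript of 5 exons, and its 4 introns are the last 4 of the full-length chain. Its annotated first exon runs 94 bases past the start of exon 6 into the intron before it. Sparc-203, of the same kind with 3 introns and 249 such bases, had 23 and 38 reads. Because models were matched by introns and the deposited tables give no read ends, reads of Sparc-205 and full-length reads broken off in exon 6 cannot be told apart here. With such chains left out, an alternative chosen after the data were seen, the mean share of Sparc-201 was 77.3% in place of 47.4%.

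Pcolce had 1 alternative exon. Pcolce-202 (493 codons, against 468 in Pcolce-201) adds 75 bases at chr5:137608617-137608691, minus strand, given below because it lengthens the coding sequence.

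Pcolce-202 exon: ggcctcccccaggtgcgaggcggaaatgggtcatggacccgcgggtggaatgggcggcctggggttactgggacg

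It was included in 6 of 87 reads (6.90%) in replicate 1 and 7 of 151 (4.64%) in replicate 2, which Fisher's exact test did not separate (p 0.556, adjusted p 1). Of the 14 exons of 3 members (Gsn, Sparc and Pcolce) in the inclusion test, 0 were called, and 0 had an unadjusted p under 0.05, against 0.503% of 6358 exons called. The other 13 were skipped in at most 2 reads of either library.

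Fibronectin transcripts mostly lacked both extra domains, at low depth. The EIIIB exon (273 bases, chr1:71613763-71614035, minus strand) and the EIIIA exon (270 bases, chr1:71603660-71603929, minus strand) each encode 1 type III repeat. They are given below from GENCODE M21 because the data turn on whether reads hold them, each followed by the 30 bases of the junction seen when it is left out, with the downstream exon in capitals.

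EIIIB exon: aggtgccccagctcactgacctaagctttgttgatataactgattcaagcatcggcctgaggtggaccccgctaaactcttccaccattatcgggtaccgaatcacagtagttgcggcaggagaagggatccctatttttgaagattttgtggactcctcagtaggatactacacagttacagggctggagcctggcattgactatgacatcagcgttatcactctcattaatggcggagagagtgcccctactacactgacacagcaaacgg
EIIIB left out: ataccgttgtcccagCTGTCCCTCCTCCCA
EIIIA exon: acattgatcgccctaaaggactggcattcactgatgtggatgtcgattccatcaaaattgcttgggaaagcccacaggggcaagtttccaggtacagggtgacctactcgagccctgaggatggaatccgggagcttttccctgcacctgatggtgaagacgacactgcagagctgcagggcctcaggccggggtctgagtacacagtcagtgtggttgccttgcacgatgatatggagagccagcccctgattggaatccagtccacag
EIIIA left out: aaactgcagtgaccaCCATTCCTGCGCCCA

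EIIIB was in 3 of 25 reads that spanned it in replicate 1 (12%, 2.55 to 31.2) and in 0 of 6 in replicate 2 (0 to 45.9). EIIIA was in 3 of 26 (11.5%, 2.45 to 30.2) and 1 of 10 (10%, 0.253 to 44.5). Most reads thus skipped each exon in both libraries, and the intervals of replicate 2, with 6 and 10 spanning reads, are wide. The 3 reads with EIIIB, of chains outside the annotation that joined annotated sites, skipped EIIIA. The annotated transcript that holds both exons, with 2477 codons, had 0 reads, while one that lacks both, has V120 and 2296 codons, led with 8 of 21 complete reads in replicate 1 and 3 of 5 in replicate 2. Reads are called complete by class alone, and the 21 include 1 read of 27 exons and 1 of 34, against 44 in that leading transcript. The annotated transcript with EIIIA alone had 2 and 0 reads. With fewer than 20 spanning reads in replicate 2 neither exon entered the inclusion test.

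Reads with all or part of the V region outnumbered those without it. Its 3 annotated forms differ in where the splice enters 1 exon, and they are named here by the codons they add to the shortest: V120 (467 bases), V95 (392 bases) and V0 (107 bases), all ending at position 71597281. Their junctions follow, minus strand, with the exon in capitals.

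V120 junction: ggaggaagaagacagATGAGCTTCCCCAAC
V95 junction: ggaggaagaagacagTTCAAAAGACCCCCT
V0 junction: ggaggaagaagacagGACAGGAAGCTCTCT

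V120 was in 16 of 29 reads in replicate 1 (55.2%, 35.7 to 73.6) and 6 of 12 in replicate 2 (50%, 21.1 to 78.9). V95 was in 10 of 29 (34.5%, 17.9 to 54.3) and 4 of 12 (33.3%, 9.92 to 65.1), and V0 in 3 of 29 (10.3%, 2.19 to 27.4) and 2 of 12 (16.7%, 2.09 to 48.4). The shares of the 3 forms overlapped between the libraries, and reads with EIIIB held V120 in 2 cases and V95 in 1. Of the annotated transcripts without EIIIB and EIIIA, that with V95 had 4 and 0 reads and that with V0 had 2 and 1.

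**Figure D5:**
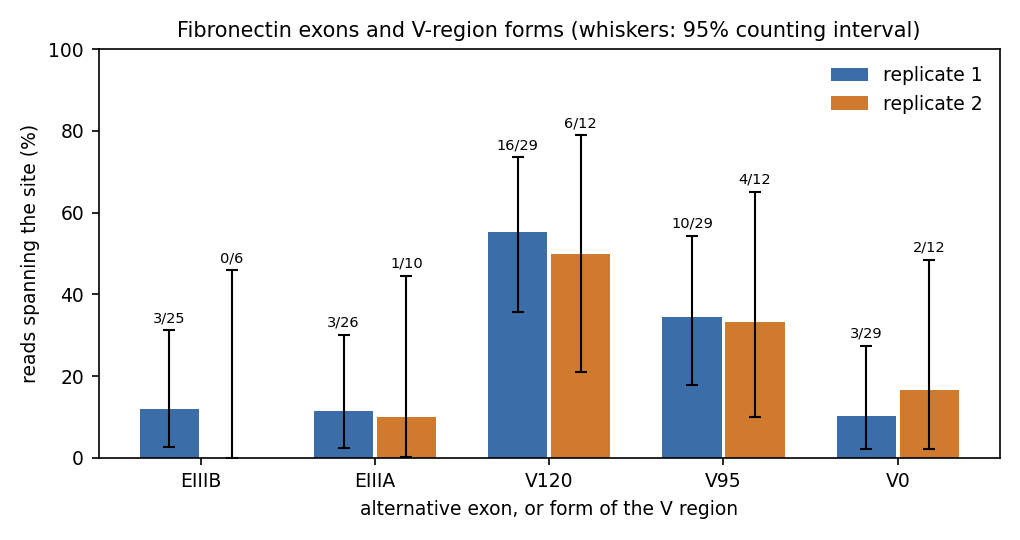
Share of spanning reads (%) that include EIIIB or EIIIA, and share of each V-region form, in replicates 1 and 2; whiskers are exact 95% counting intervals and the fractions are reads over spanning reads. EIIIB and EIIIA lie at 12% or below in both libraries, V120 is the most read form, and the intervals of replicate 2 are wide.

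Partner genes of these proteins were called lower in replicate 2 more often than higher, by 19 to 1, or by 4 to 2 with the length trend removed. Over 7 lists of partner genes, 57 genes had enough reads, of which 1 was higher (1.75%, against 11.1% of all genes tested), 19 were lower (33.3%, against 14.9%) and 37 were not called. With the length trend removed, 2 were higher (3.51%, against 7.5% of all genes) and 4 lower (7.02%, against 5.56%). Both counts are given for each list, to be read against these shares of all genes, with the list's median log2 ratio, which was -0.18 over all genes tested.

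Collagen processing and crosslinking genes, listed as partners of Pcolce, had 0 higher and 5 lower of 14 tested (all genes 11.1% and 14.9%). With the length trend removed it was 0 and 1 (all genes 7.5% and 5.56%). The list took 792 and 566 CPM in all, with a median log2 ratio of -0.41. The collagen chaperone Serpinh1 fell from 242 to 185 CPM (log2 ratio -0.39, adjusted p 0.00981). The prolyl hydroxylase subunits P4hb and P4ha2 fell, with log2 ratios of -0.42 and -0.85 (adjusted p 0.00752 and 0.0161), and so did the lysyl hydroxylase Plod3 (-1.87, adjusted p 2.3e-06). Of these 4, Plod3 alone was still called with the length trend removed. Bmp1, the procollagen C-proteinase itself, had 31 and 26 reads, and Pcolce2, the second enhancer, 7 and 14; neither was called.

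Elastic fibre and microfibril genes, the partners of fibrillin-1, had 0 higher and 4 lower of 16 tested (all genes 11.1% and 14.9%), or 0 and 2 with the length trend removed (all genes 7.5% and 5.56%), at 523 and 325 CPM in all and a median log2 ratio of -0.67. Ltbp4, which binds latent TGF-beta to microfibrils, fell from 148 to 64.2 CPM (log2 ratio -1.20, adjusted p 8.3e-10), and elastin, Eln, from 56.1 to 15.4 CPM (-1.85, adjusted p 3.1e-07); both were still called with the trend removed. Fbln2 and Adamtsl4 fell, with log2 ratios of -0.90 and -0.89 (adjusted p 0.00626 and 0.0292) and were not called after removal. Mfap5, a microfibril glycoprotein, had 73.8 and 57.1 CPM and was not called. Fbn2, the second fibrillin gene, had 0 and 1 reads.

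Fibronectin receptors and partners had 0 higher and 3 lower of 7 tested (all genes 11.1% and 14.9%), and 0 of either with the length trend removed, at 296 and 172 CPM in all and a median log2 ratio of -0.84. The integrin subunits Itgb1 and Itga5, which together form the main fibronectin receptor, fell, with log2 ratios of -0.84 and -1.52 (adjusted p 7.0e-06 and 0.00914). Tgm2, a crosslinking transglutaminase, fell by 1.28 (adjusted p 0.00512). Tns1, which links integrins to actin, had 44.9 and 39.8 CPM and was not called.

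The SPARC family beside Sparc had 0 higher and 2 lower of 3 tested, or 0 and 1 with the length trend removed, with a median log2 ratio of -0.61. Fstl1 fell from 196 to 83.5 CPM (log2 ratio -1.23, adjusted p 2.0e-13) and Smoc2 from 114 to 74.5 CPM (-0.61, adjusted p 0.0072), while Sparcl1 had 109 and 100.8 CPM. Among the gelsolin family and actin-severing genes, 0 were higher and 2 lower of 5 tested, or 1 and 0 with the length trend removed, with a median log2 ratio of -0.04. Svil and Flii, which carry gelsolin repeats, fell, with log2 ratios of -0.89 and -0.90 (adjusted p 0.00165 and 0.00301). The muscle cofilin Cfl2 had 509 and 495 CPM and was the gene called higher with the length trend removed (log2 ratio 0.36). Cfl1 had 55.2 and 55.9 CPM and was not called. Scin, Vil1 and Avil, the gelsolin relatives of other tissues, had 0 reads in both libraries, so Gsn was the most read of the listed genes with gelsolin repeats, at 1545 and 1145 CPM.

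Vitamin K and calcification genes around Mgp had 0 higher and 1 lower of 5 tested, and 0 of either with the length trend removed, with a median log2 ratio of -0.32. The vitamin K epoxide reductase paralog Vkorc1l1 fell by 1.15 on the log2 scale (adjusted p 0.0089), and Gas6, another vitamin K-dependent protein, had 57.0 and 45.6 CPM, and Vkorc1 2.80 and 8.99 CPM. Partners of PEDF and dermatopontin had 1 higher and 2 lower of 7 tested, or 1 and 0 with the length trend removed, with a median log2 ratio of -0.12. Dcn, the decorin that dermatopontin binds, rose from 204.7 to 363 CPM (log2 ratio 0.83, adjusted p 2.5e-12). Pnpla2, a lipase to which PEDF binds, fell from 165 to 107 CPM (-0.63, adjusted p 0.000516), and Tgfb3 by 1.01 on the log2 scale (adjusted p 0.00127). Rpsa had 59.8 and 73.2 CPM.

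Markers of other cells moved between the libraries beside these genes. Their calls are to be read against 11.1% higher and 14.9% lower of all genes tested. With the length trend removed, the shares of all genes were 7.5% and 5.56%. Muscle fibre markers summed to 165385 and 178016 CPM, so the defining genes of the labelled tissue were present. Of these 5 markers 4 were higher and 1 lower, or 2 and 2 with the length trend removed. The 12 fibroblast markers summed to 4425 and 2653 CPM. Of these 12, 2 were higher (Col1a2 and Dcn), 2 lower (Col3a1 and Lum) and 8 not called. With the length trend removed, 3 were higher and 1 lower. The fall of that sum rests on Col3a1, at 2665 and 706 CPM: the other 11 summed to 1760 and 1947 CPM. Tendon markers were higher for 8 of 8 tested and summed to 94.4 and 488 CPM, and slow fibre markers for 5 of 5, at 725 and 5951 CPM. Both counts stayed the same with the length trend removed. Adipocyte markers were lower for 4 of 4 (343 and 89.9 CPM), blood markers for 3 of 3 (1022 and 364 CPM), smooth muscle and pericyte markers for 4 of 6 (322 and 181 CPM). With the length trend removed, 3 adipocyte, 3 blood and 3 smooth muscle and pericyte markers were lower. Endothelial markers had 1 higher and 2 lower of 6, leukocyte markers 1 higher of 3 and Schwann cell markers 1 lower of 2. With the length trend removed, endothelial markers had 0 higher and 2 lower, leukocyte markers 0 called and Schwann cell markers 1 lower. The cartilage markers Matn1 and Col9a1 had 0 reads, and Acan and Col2a1 at most 3. The part of these shifts in the levels of the 8 genes was not tested.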

How the data were processed

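Each library's deposited table holds read counts per transcript model, whole numbers with no normalization; the deposited gene models name TALON, and the notes deposited with them name mm10 and GENCODE M21. For the aligner, for read filters and for how ambiguous reads were assigned: not given in the sources used here. Models were joined to their introns and matched between libraries by chromosome, strand and intron chain. Gene counts were summed, spike-ins left out, and log2 ratios used 0.5 reads as pseudocount. Fisher's exact tests (scipy 1.17.1) were adjusted by Benjamini-Hochberg over all eligible genes or exons: 10 or more reads per gene, 20 or more reads per library for isoforms and exons. Alternatives used TMM and the exact test of edgeR 4.0.16, DESeq2 1.42.0 size factors, Known or complete models, and removal of the length trend (lowess, fraction 0.4, then an exact binomial test). Fisher's tests and the length-trend test were run on simulated reads that held counting error and no spread between animals. That run did not cover edgeR's test and cannot show how the tests behave between animals. The 8 genes and all gene lists were chosen with earlier results of these data known. Named were all 8 genes, chains at 5% or more, and of each partner list the 3 most read and up to 4 called; Bmp1, Pcolce2, Fbn2 and the named markers were added after their values were seen. Leprel2 is not in the annotation under that name.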

Additional observations from a re-analysis of the deposited data

How the results depend on the processing

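Members called higher numbered 2, 3 with TMM scaling, DESeq2 size factors, spike-ins kept or 20 or more reads (Pcolce added), 1 over Known models and 0 with edgeR's exact test at the common dispersion, which is estimated from the same 2 libraries. Of the 2 called lower, 1 was called with TMM scaling, DESeq2 size factors, no count minimum or an adjusted p of 0.01, and 0 with the length trend removed or with edgeR. Genes called between the libraries numbered 2311, against 1143 with the length trend removed and 15 with edgeR, and the share of these called higher was 42.5%, against 60.2% with TMM scaling, 59.9% with DESeq2 size factors, 57.4% with the trend removed, 73.3% with edgeR and 28.4% over Known models. Genes with a differing leading isoform share numbered 32, and 12 over Known models. The log2 ratio of Dpt turned from -0.14 to 0.044 with TMM scaling and 0.041 with DESeq2 size factors, and with the length trend removed Mgp turned from 0.69 to -0.13 and Fbn1 from -0.21 to 0.45; none of these was called. Mean CPM over Known models and over complete chains was 501 and 516 for Sparc, 8.76 and 11.4 for Fn1, 5.84 under both for Dpt, and 1.40 and 1.87 for Fbn1, all lower because fewer reads are counted. Mean Fn1 shares over Known models and over complete chains were 6.25% and 5% for EIIIA, 68.8% and 60% for V120 and 12.5% and 25% for V95, and 18.8% over Known models for V0. The leading isoform's mean share over Known models was 99.4% for Gsn; with incomplete chains in the denominator it was 93.7% for Gsn, 35.6% for Sparc, 18.3% for Fn1, 91.1% for Mgp, 75.3% for Pcolce and 74.1% for Serpinf1. Without retained-intron chains, chosen after seeing the data, it was 77.3% for Sparc and 93.5% for Pcolce. No paired analysis was possible because there is 1 group. Leaving out a library leaves the value of the other, which the report gives. At 34 or fewer reads per library for Fn1, Dpt and Fbn1, depth limits every share and ratio of these genes.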
